A study of Mus musculus with 16 samples.

Results

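The 10 genes described here import, store or export iron: Tfrc, Trf, Hfe, Steap3 and Slc11a2 on the uptake side, Fth1, Ftl1 and Ncoa4 in storage, Slc11a1 in the phagosome membrane and Slc40a1 at the exit. They were chosen by name, after changes in iron genes between the groups of this experiment had been seen, and were found by their Ensembl identifiers among 54532 genes. All 10 passed a filter of 1 FPKM (a level per kilobase of exon, scaled for sequencing depth) in at least 4 libraries, as did 11654 genes in all. RNA was sequenced from 16 libraries of bone marrow-derived macrophages, which are macrophages grown from the marrow of FVB/N mice for 5 to 7 days in medium with 30% supernatant of L929 fibroblasts. Cells of wild-type mice and of mice labelled FOXO3-/- received the vehicle DMSO or 100 nM dexamethasone, a synthetic glucocorticoid, for 24 h, which gave 4 groups of 4 libraries. FOXO3 is a forkhead transcription factor, and the series title poses the question of how it bears on signalling by the glucocorticoid receptor. The sources used here do not give which part of Foxo3 was deleted, nor whether the numbered replicates came from separate animals or cultures. The tests therefore measure spread between libraries that may be technical.

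Macrophages take in transferrin-bound iron through the transferrin receptor and, in spleen and liver, recover iron from the haem of aged red cells. Iron that is not used is held in ferritin, a shell of heavy and light chains, or leaves the cell through ferroportin, the product of Slc40a1. When cell iron is low, iron regulatory proteins bind hairpins called iron-responsive elements. A hairpin in the 5′ untranslated region then blocks translation of ferritin and ferroportin mRNA, whereas hairpins in the 3′ untranslated region shield the receptor mRNA from decay. RNA levels therefore read only part of this control for Fth1, Ftl1 and Slc40a1.

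The hairpins are shown because the members in which one was found differ in the untranslated region, 5′ or 3′, that holds it. In GENCODE M21 transcripts on GRCm38, a hairpin of 27 bases with the loop CAGTGN, an unpaired C below it, 5 upper stem pairs and at least 3 of 5 lower stem pairs was searched on the transcript strand. The Slc40a1 match lies in the 5′ untranslated region at chr1:45925466-45925492 on the minus strand. The Fth1 match, also in a 5′ untranslated region, lies at chr19:9982733-9982759 on the plus strand, and that of Ftl1 at chr7:45459780-45459806 on the minus strand. The 3′ untranslated region of Tfrc held 4 matches on the plus strand, at chr16:32631220-32631246, chr16:32631599-32631625, chr16:32631664-32631690 and chr16:32631711-32631737. Capitals mark the loop.
Slc40a1: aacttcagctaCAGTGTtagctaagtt
Fth1: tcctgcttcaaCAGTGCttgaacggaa
Ftl1: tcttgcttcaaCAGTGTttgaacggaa
Tfrc, first: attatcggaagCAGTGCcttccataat
Tfrc, next: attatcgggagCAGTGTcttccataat
Tfrc, next: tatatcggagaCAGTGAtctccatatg
Tfrc, last: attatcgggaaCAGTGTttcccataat
Among 10515 protein-coding genes tested, 7 (0.0666%) had such a hairpin in a 5′ and 26 (0.247%) in a 3′ untranslated region. No match was found in the other 6 members, Slc11a2 among them, which says only that these letters and pairings were not met in their annotated transcripts. An iron-responsive element of another form would be missed, so these 6 are not shown to lack one. A match is a description of sequence and not of binding.

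The targeted gene came first among the checks. Foxo3 lay between 22.9 and 26.4 FPKM in wild-type vehicle libraries and between 23.2 and 24.7 FPKM in knockout-labelled vehicle libraries, and it passed the test in no comparison, so its whole-gene value does not check the genotype labels. Fkbp5, a glucocorticoid receptor target, was at most 1.44 FPKM in every vehicle library and at least 72.7 FPKM in every dexamethasone library. All 10 macrophage markers reached 1 FPKM in every library, with a summed level of 9889 to 15879 FPKM. Most of that sum was Lyz2, at 7764 to 12754 FPKM, and single markers were not alike between genotypes. Mean Adgre1 was 615 FPKM in wild-type and 1282 FPKM in knockout-labelled vehicle libraries, and 280 and 705 FPKM with dexamethasone. Mean Mertk lay the other way in vehicle, at 32.8 and 26.6 FPKM. Summed stromal markers (10 fibroblast genes) varied far more, from 30.4 to 565 FPKM in wild-type vehicle, 69.2 to 1156 in wild-type dexamethasone, 2.9 to 398 in knockout-labelled vehicle and 6.5 to 94.6 in knockout-labelled dexamethasone libraries. Within its group, 1 library stood apart in Col1a1 in each of 3 groups: wild-type vehicle replicate 3 (6.77 FPKM, against 124 to 174), wild-type dexamethasone replicate 4 (19.1, against 159 to 356) and knockout-labelled vehicle replicate 4 (95.8, against 0.395 to 4.76). Stromal RNA thus stood higher in most wild-type than in most knockout-labelled libraries, and results that rest on these 3 libraries are given with and without them. Summed erythroid markers reached at most 2.57 FPKM and summed neutrophil markers at most 4.54 FPKM, and Hba-a1, Hba-a2 and Hbb-bt were at 0 in every library. In bulk RNA, fewer cells of a type and less RNA per cell cannot be told apart. By recovered reads, a library held 16886746 to 20584578 reads on genes.

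Dexamethasone was followed by less RNA of most uptake and storage genes and more of the exporter, in both genotypes. Tfrc, Slc11a2, Steap3, Ncoa4 and Ftl1 fell in wild-type cells while Slc40a1 and Hfe rose, and in knockout-labelled cells Fth1 also fell and Trf also rose. Of the 10 members, 7 passed limma's test in wild-type cells, 2 higher and 5 lower, where 11.9% and 18.2% of all genes passed in those directions. In knockout-labelled cells 9 passed, 3 higher and 6 lower, against 15.0% and 24.1% of all genes. The median log2 difference was -0.415 over the members and -0.018 over all genes tested in wild type, and -0.566 and -0.055 in knockout-labelled cells. Without the 3 libraries apart in Col1a1 the counts were again 7 and 9, with 1 higher and 6 lower in wild type.

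Tfrc and Slc40a1 differed between the genotypes in opposite directions. In vehicle, knockout-labelled cells had more Tfrc and Slc11a2 and less Slc40a1 and Trf than wild-type cells, so 4 of 10 members passed, 2 higher (background 3.37% of genes) and 2 lower (1.30%). Under dexamethasone 5 passed: Tfrc, Hfe and Ncoa4 were higher (background 14.3%), and Slc40a1 and Slc11a2 lower (12.4%). Without the 3 libraries these counts were 7 and 6, and the counts over all genes went from 545 to 3958 and from 3114 to 5158. The difference between both responses to dexamethasone (interaction) passed for 1 member, Slc11a2, on the lower side, where 0.0686% of genes passed lower and 0.0601% higher. Because the members were chosen from these same comparisons, the counts are descriptions, nothing is read from them, and no p-value is given for a member. The comparisons share groups, so their differences are not independent of each other.

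**Figure D1:**
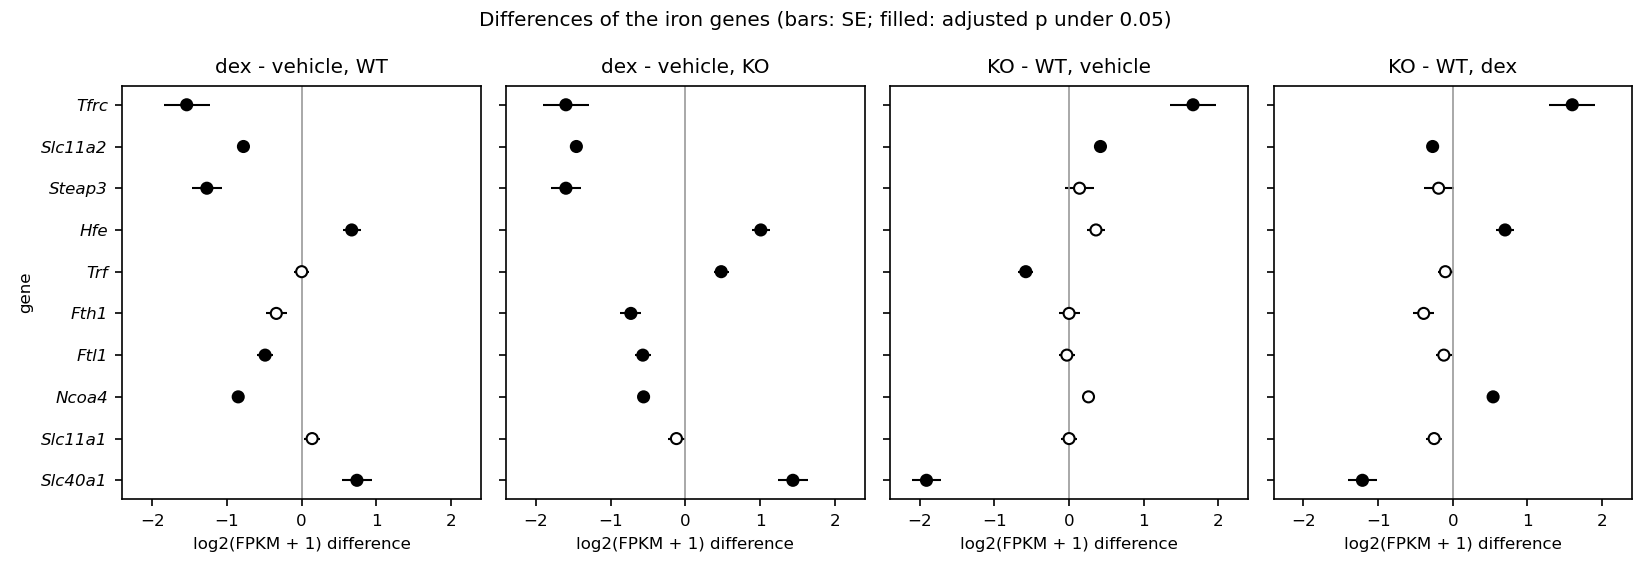
Differences of the 10 iron genes on the log2(FPKM + 1) scale in 4 comparisons, each with its standard error as a bar; filled points passed limma's test over all genes at an adjusted p under 0.05. Tfrc and Slc40a1 lie on opposite sides of 0 in every panel.

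Tfrc, the transferrin receptor, brings iron-loaded transferrin into the cell and was the member with the steepest fall after dexamethasone in wild-type cells. Its level in wild-type vehicle libraries 1 to 4 was 51.2, 55.5, 116 and 67.8 FPKM, and with dexamethasone 21.1, 23.5, 20.0 and 28.1 FPKM. In knockout-labelled cells it was 314, 255, 284 and 102 FPKM in vehicle and 67.9, 79.8, 84.5 and 57.7 FPKM with dexamethasone. Treated and vehicle libraries did not overlap in either genotype. The mean fell from 72.5 to 23.2 FPKM in wild type (log2 difference -1.54 ± 0.31 SE, 3.13-fold lower) and from 239 to 72.5 FPKM in knockout-labelled cells (-1.6 ± 0.31, 3.29-fold lower). The vehicle wild-type mean and the treated knockout-labelled mean were thus alike, at 72.5 FPKM each, with libraries from 51.2 to 116 and from 57.7 to 84.5 FPKM. The response differed between genotypes by -0.06 ± 0.44, within its error. Without the 3 libraries apart in Col1a1 the falls were -1.39 ± 0.14 in wild type and -1.97 ± 0.13 in knockout-labelled cells. The responses then differed by -0.58 ± 0.19, which did not pass, so they are not shown to be equal.

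Between genotypes, Tfrc was higher in knockout-labelled cells by 1.66 ± 0.31 in vehicle and by 1.6 ± 0.31 under dexamethasone. The treated groups were apart, whereas the vehicle groups overlapped through a single pair: wild-type replicate 3 at 116 FPKM and knockout-labelled replicate 4 at 102 FPKM. These are the vehicle libraries that stood apart in Col1a1. Vehicle libraries with Col1a1 under 50 FPKM held 116 FPKM of Tfrc in wild type and 255 to 314 FPKM in knockout-labelled cells, and those above 50 held 51.2 to 67.8 and 102 FPKM. Without the 3 libraries the vehicle difference was 2.27 ± 0.14. With a summary of stromal markers as a covariate it was 1.05 ± 0.22, and the difference under dexamethasone 0.85 ± 0.23. In a fit of the vehicle groups alone it was 1.66 ± 0.39 and did not pass. The part of stromal RNA in the Tfrc levels was not tested.

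Trf encodes transferrin, the iron carrier that Tfrc binds, and was the lowest member, with 108 to 256 recovered reads per library. It lay at 3.6, 4.12, 3.61 and 4.15 FPKM in wild-type vehicle libraries and at 4.1, 3.84, 3.25 and 4.31 FPKM in wild-type dexamethasone libraries. Knockout-labelled libraries held 2.36, 2.58, 1.87 and 2.21 FPKM in vehicle and 3.87, 4.02, 2.94 and 3.32 FPKM with dexamethasone. Only the knockout-labelled vehicle group stood below the other 3, which overlapped. Trf rose with dexamethasone in knockout-labelled cells (0.48 ± 0.1, 1.57-fold) and was lower in them in vehicle (-0.58 ± 0.1, 1.71-fold lower). In wild-type cells the treated and vehicle means were both 3.87 FPKM.

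Hfe encodes a relative of class I major histocompatibility proteins that binds the transferrin receptor and is mutated in hereditary haemochromatosis. It was measured at 21.8, 20.5, 23.2 and 25.0 FPKM in wild-type vehicle libraries and 33.3, 34.2, 30.7 and 49.9 FPKM with dexamethasone. The knockout-labelled libraries held 28.2, 28.6, 27.9 and 32.5 FPKM in vehicle and 62.2, 57.4, 54.5 and 65.6 FPKM with dexamethasone. Hfe thus rose while Tfrc fell, by 0.67 ± 0.12 in wild type and 1.01 ± 0.12 in knockout-labelled cells, with no overlap. Under dexamethasone it was higher in knockout-labelled cells by 0.7 ± 0.12 (1.62-fold). In vehicle the groups did not overlap either, but the difference of 0.36 ± 0.12 did not pass. It passed without the 3 libraries apart in Col1a1, at 0.33 ± 0.08, and with a replicate block, but in 0 of 8 fits that left out 1 library. The interaction of 0.34 ± 0.17 did not pass. Without the 3 libraries it was 0.53 ± 0.11 and passed. With 1 library left out it passed in 1 of 16 fits, at 0.49 ± 0.11 without wild-type dexamethasone replicate 4. Wild-type dexamethasone replicate 4, with 49.9 FPKM, was nearest to the knockout-labelled range, and among the 9 libraries with Col1a1 under 50 FPKM, where it is the only treated wild-type library, the genotype difference under dexamethasone was 0.25 and did not pass.

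Steap3, an endosomal ferrireductase, reduces the iron that transferrin delivers so that it can leave the endosome. In wild-type vehicle libraries it lay at 56.8, 44.7, 65.8 and 48.1 FPKM, and with dexamethasone at 23.4, 16.8, 23.4 and 23.2 FPKM. In knockout-labelled libraries it lay at 71.7, 78.4, 58.3 and 36.4 FPKM in vehicle and at 16.3, 18.9, 21.2 and 19.1 FPKM with dexamethasone. Every treated library was below every vehicle library. The fall was 1.27 on the log2 scale in wild type (SE 0.2, 2.48-fold lower) and 1.6 in knockout-labelled cells (SE 0.2, 3.24-fold lower). Steap3 did not pass between genotypes, with differences of 0.14 ± 0.2 in vehicle and -0.19 ± 0.2 under dexamethasone. Knockout-labelled vehicle replicate 4 was the lowest vehicle library, and without the 3 libraries apart in Col1a1 the vehicle difference was 0.47 ± 0.15 and passed.

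Slc11a2 encodes DMT1, the divalent metal transporter that carries reduced iron out of the endosome. It was at 22.1, 21.7, 26.1 and 23.0 FPKM in wild-type vehicle libraries and at 12, 12.9, 12.5 and 15.3 FPKM with dexamethasone. Knockout-labelled libraries started higher, at 30.9, 33.1, 34.3 and 27.4 FPKM, and ended lower, at 10.4, 10.9, 10.5 and 11.2 FPKM. No groups overlapped in any of the 4 comparisons. Dexamethasone lowered the mean 1.77-fold in wild type (-0.78 ± 0.08) and 2.93-fold in knockout-labelled cells (-1.46 ± 0.08). The genotype difference was 0.42 ± 0.08 in vehicle and -0.27 ± 0.08 under dexamethasone.

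The interaction of Slc11a2, -0.68 ± 0.12, was the only one among the members to pass. It lay between -0.75 and -0.61 when each of the 16 libraries was left out in turn, but passed in only 3 of those 16 fits. The treated genotype difference passed in 3 of 8 such fits. In a fit of the vehicle groups alone, the vehicle difference of 0.42 did not pass. Reads of Slc11a2 could be shared with Gm5475, which overlaps it on the opposite strand, but that gene reached at most 0.251 FPKM.

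**Figure D2:**
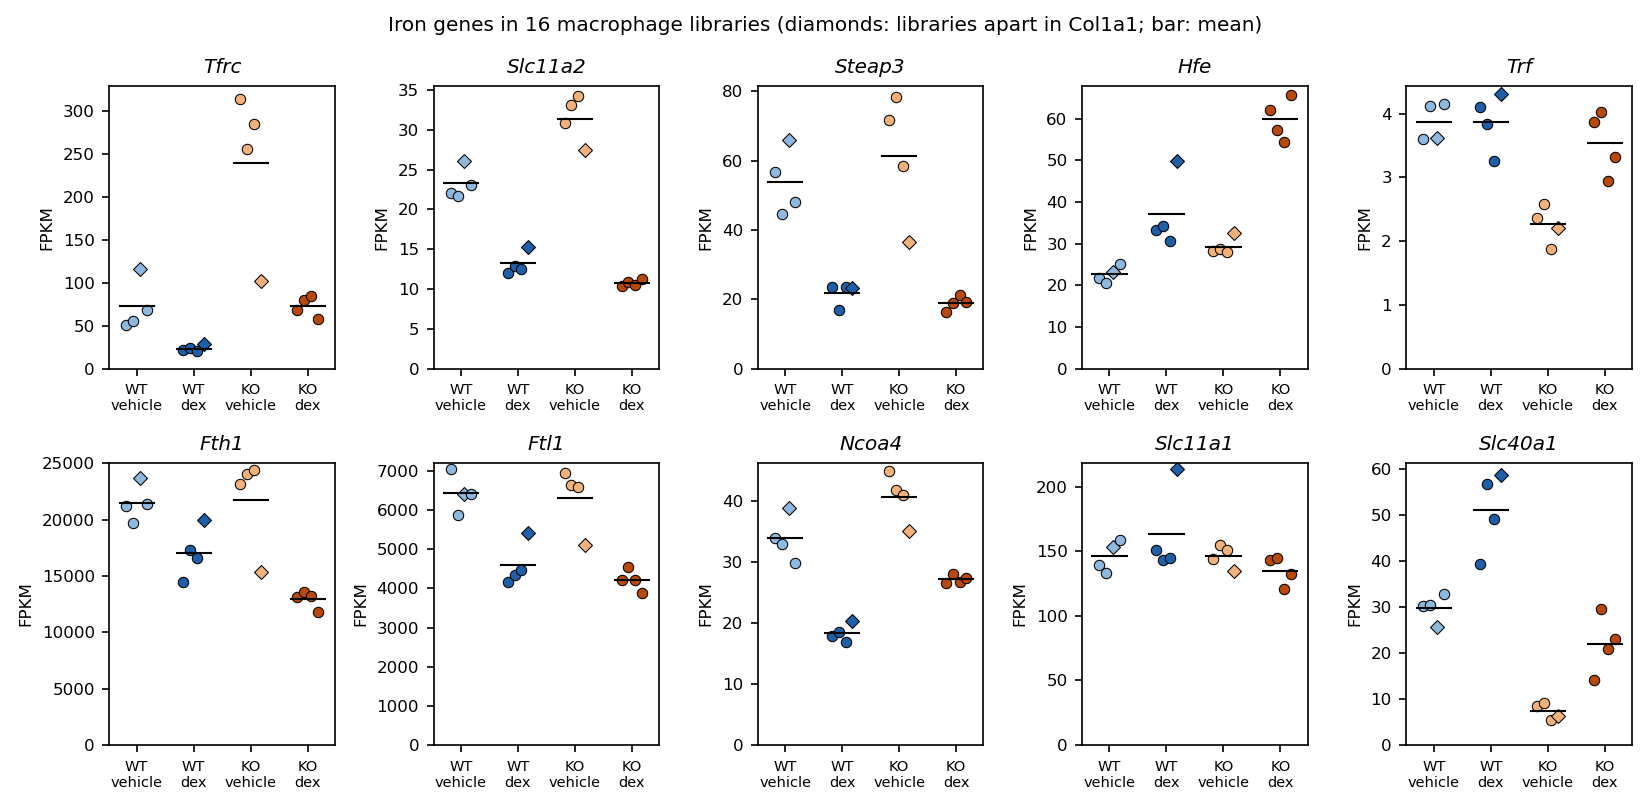
FPKM of the 10 iron genes in each of the 16 libraries, by group, with a bar at each group mean; diamonds are the 3 libraries that stood apart from their group in Col1a1. Each panel has its own axis, and the vehicle groups of Tfrc overlap only through 2 diamonds, at 116 and 102 FPKM.

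Fth1, the ferritin heavy chain that oxidises iron for storage, was the most or second most abundant gene per exon length in every library. It stood at 21173, 19738, 23678 and 21377 FPKM in wild-type vehicle libraries and 14429, 17269, 16614 and 19949 FPKM with dexamethasone. In knockout-labelled cells it stood at 23158, 24071, 24445 and 15398 FPKM in vehicle and 13149, 13572, 13199 and 11804 FPKM with dexamethasone. The wild-type groups overlapped by a narrow margin, 19949 against 19738 FPKM, and the knockout-labelled groups did not. Fth1 fell by 0.73 on the log2 scale in knockout-labelled cells (SE 0.14, 1.68-fold lower). In wild type the difference of -0.34 ± 0.14 did not pass, and without wild-type dexamethasone replicate 4 it was -0.42 and passed. Under dexamethasone the knockout-labelled mean was 1.32-fold below the wild-type mean with no overlap, a difference of -0.39 ± 0.14 that did not pass. It passed, at -0.31, without the 3 libraries apart in Col1a1, and so did the interaction, at -0.52.

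Ftl1, the ferritin light chain that helps the iron core form, moved with less spread. Its wild-type values were 7056, 5882, 6407 and 6405 FPKM in vehicle and 4174, 4338, 4463 and 5402 FPKM with dexamethasone. Its knockout-labelled values were 6954, 6645, 6577 and 5098 FPKM in vehicle and 4226, 4542, 4222 and 3893 FPKM with dexamethasone. Treated libraries lay below vehicle libraries in both genotypes. The log2 difference was -0.49 ± 0.11 in wild type (1.4-fold lower) and -0.57 ± 0.11 in knockout-labelled cells (1.5-fold lower). Without a filter on low genes both differences kept their size, but their SE was 0.34 and neither passed. The fall of Fth1 in knockout-labelled cells, -0.73 with an SE of 0.93 in that fit, did not pass either. The values of Fth1 and Ftl1 were the same in that fit. Only the set of genes from which limma draws the spread it shares between genes had changed.

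Together the ferritin chains made up 7.46 to 8.83% of all FPKM in wild-type vehicle libraries and 6.11 to 7.51% with dexamethasone. In knockout-labelled libraries they made up 6.23 to 8.88% and then 5.11 to 5.74%. All knockout-labelled dexamethasone libraries lay below the other 12 libraries, whose lowest share was 6.11%. The ratio of heavy to light chain FPKM stayed between 2.99 and 3.98 over all libraries. Ferritin has many processed gene copies that could take or lend reads. Apart from the members, 14 annotated genes have names that start with Fth or Ftl, and 9 of them were at 0 in every library. Of those 9, all but Fth-ps3 are named Fthl17, not after Fth1 or Ftl1, so this count says little about shared reads. Ftl1-ps1 held 0.64 to 0.83% of the Ftl1 level, so the split of reads between these 2 is uncertain. Ftl2-ps lay between 0.365 and 5.87 FPKM in 15 libraries and at 31.2 FPKM in knockout-labelled vehicle replicate 4.

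Ncoa4 encodes the receptor that delivers ferritin to autophagosomes, where its iron is freed. It was measured at 34.0, 33.1, 38.9 and 29.9 FPKM in wild-type vehicle libraries and at 17.9, 18.5, 16.9 and 20.3 FPKM with dexamethasone. The knockout-labelled values were 45.0, 41.9, 41.1 and 35.1 FPKM in vehicle and 26.6, 28.1, 26.8 and 27.5 FPKM with dexamethasone. Ncoa4 fell by 0.85 in wild type (SE 0.08, 1.85-fold lower) and by 0.56 in knockout-labelled cells (SE 0.08, 1.5-fold lower) on the log2 scale. Treated knockout-labelled libraries all lay above treated wild-type libraries (0.54 ± 0.08, 1.48-fold). In vehicle the groups overlapped and the difference of 0.26 ± 0.08 did not pass, whereas without the 3 libraries apart in Col1a1 it was 0.39 and passed.

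Slc11a1 encodes NRAMP1, which pumps metal ions out of the phagosome of macrophages and limits the growth of ingested microbes. It lay at 139, 133, 153 and 159 FPKM in wild-type vehicle libraries and 151, 143, 145 and 214 FPKM with dexamethasone. In knockout-labelled cells it lay at 144, 155, 151 and 135 FPKM in vehicle and 143, 145, 121 and 132 FPKM with dexamethasone. All groups overlapped, and Slc11a1 was the member that passed in no comparison. Its differences ranged from -0.25 ± 0.11 between treated genotypes to 0.14 ± 0.11 for dexamethasone in wild type. The highest value, 214 FPKM, was in wild-type dexamethasone replicate 4. With the stromal covariate the treated genotype difference was -0.49 and passed.

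Slc40a1 encodes ferroportin, the only known iron exporter of mammalian cells. In wild-type vehicle libraries it stood at 30.3, 30.5, 25.6 and 32.8 FPKM, and with dexamethasone at 39.3, 56.9, 49.2 and 58.8 FPKM. In knockout-labelled libraries it stood at 8.39, 9.15, 5.37 and 6.39 FPKM in vehicle and at 14.2, 29.6, 20.8 and 23.1 FPKM with dexamethasone. No groups overlapped in any of the 4 comparisons, and the lowest vehicle library of wild type held more than the highest of knockout-labelled cells. Dexamethasone raised the mean from 29.8 ± 3.03 (SD) to 51.1 ± 8.86 FPKM in wild type (0.74 ± 0.2 SE, 1.71-fold) and from 7.33 ± 1.74 to 21.9 ± 6.39 FPKM in knockout-labelled cells (1.44 ± 0.2, 3.0-fold; n = 4 each). The knockout-labelled mean was 4.07-fold lower in vehicle (-1.91 ± 0.2) and 2.33-fold lower under dexamethasone (-1.21 ± 0.2). The larger fold in knockout-labelled cells is not shown to differ, since the interaction of 0.7 ± 0.28 did not pass. With dexamethasone, knockout-labelled libraries reached 14.2 to 29.6 FPKM. Only the library at 29.6 FPKM lay within the untreated wild-type range of 25.6 to 32.8 FPKM, and the means were 21.9 and 29.8 FPKM.

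Unlike those of Tfrc, the Slc40a1 levels of the vehicle genotypes did not overlap in the libraries apart in Col1a1. Wild-type replicate 3, low in Col1a1, held 25.6 FPKM, below the 30.3 to 32.8 FPKM of the others in its group. Knockout-labelled replicate 4, high in Col1a1, held 6.39 FPKM, inside its group's range of 5.37 to 9.15 FPKM. The part of stromal RNA in the Slc40a1 levels was not tested. Without the 3 libraries the genotype difference was -1.93 ± 0.23 in vehicle and -1.14 ± 0.21 under dexamethasone. The wild-type dexamethasone difference was then 0.6 ± 0.23 and did not pass. Among libraries with Col1a1 under 50 FPKM, which leave 1 wild-type library per treatment, the genotype differences were -1.65 ± 0.37 and -1.43 ± 0.36 and did not pass.

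**Figure D3:**
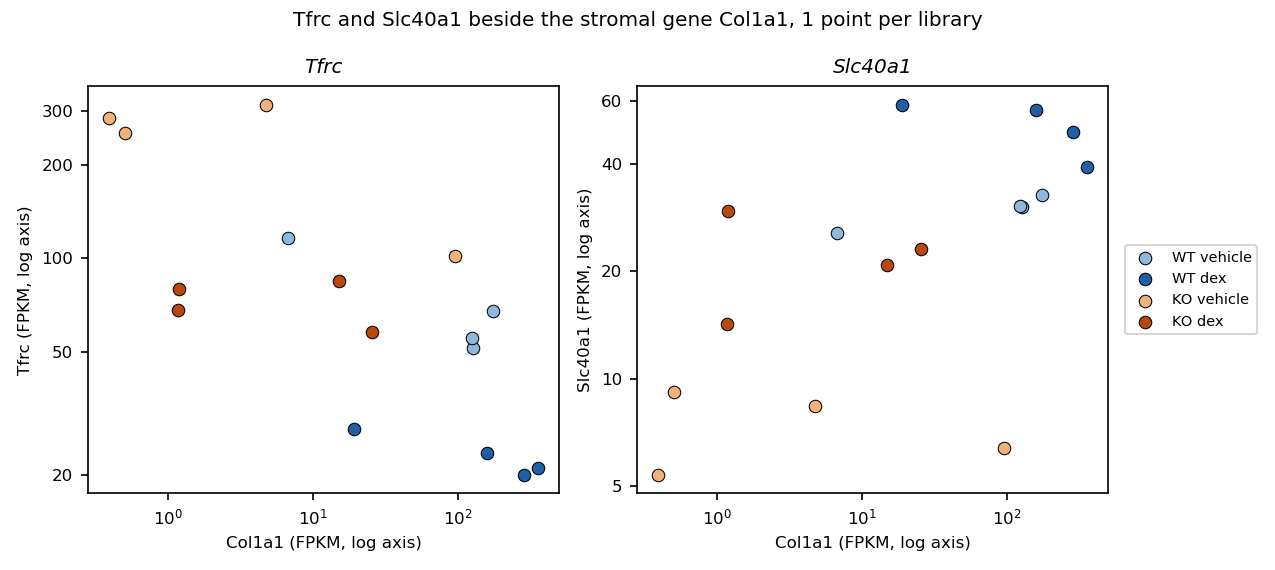
Tfrc and Slc40a1 against the stromal gene Col1a1, all in FPKM on log axes, with 1 point per library coloured by group. In vehicle, Tfrc is 116 FPKM in the wild-type library low in Col1a1 and 102 FPKM in the knockout-labelled library high in Col1a1. Slc40a1 is 25.6 and 6.39 FPKM in them.

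Set side by side per exon length, the importer Tfrc and the exporter Slc40a1 changed order. Tfrc stood at 1.69 to 4.51 times the Slc40a1 level in wild-type vehicle libraries and at 0.406 to 0.538 times that level with dexamethasone. In knockout-labelled libraries the ratio was 16 to 52.8 in vehicle and 2.49 to 4.79 with dexamethasone. Slc40a1 thus exceeded Tfrc in the 4 wild-type dexamethasone libraries and in none of the other 12. The wild-type vehicle and knockout-labelled dexamethasone ranges overlapped, and the other groups stood apart.

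The genes whose profile over the 16 libraries was most like that of Slc40a1 were Acp5, Ypel3, Plod1, Cd38 and Zfp949. Likeness was the root mean square difference between log2(FPKM + 1) profiles, each centred on its own mean, and came to 0.362, 0.404, 0.418, 0.487 and 0.497, where the median of all other genes tested was 1.05. Acp5, a phosphatase with an iron centre, had group means of 24.7 and 29.9 FPKM in wild-type vehicle and dexamethasone cells and 5.42 and 19.5 FPKM in knockout-labelled cells. Ypel3 had means of 62.9, 94.6, 23.9 and 38.7 FPKM in the same order.

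Around the members, 67 further iron and haem genes were listed, of which 55 passed the filter. With dexamethasone 19 of them (34.5%) passed in wild type, 8 higher and 11 lower, and 23 (41.8%) in knockout-labelled cells, 8 higher and 15 lower. These shares lie near those over all genes tested, 30.1% and 39.1%, so the counts are no result about iron genes. Their median log2 difference was 0.052 and -0.075. Adjusted p-values for these genes come from limma over all genes tested. The list was written with earlier results of these data known.

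Of the genes of haem uptake, breakdown and export, only Hmox1 and Cd163 passed as higher with dexamethasone, in both genotypes. Hmox1, the haem oxygenase that frees iron from haem, was 302 ± 25.3 FPKM (SD, n = 4) in wild-type vehicle and 821 ± 62.3 FPKM in wild-type dexamethasone libraries (log2 difference 1.44, limma adjusted p = 1.65e-06). In knockout-labelled cells it was 269 ± 49.9 and 555 ± 65.3 FPKM (1.06, limma adjusted p = 1.88e-05), and it was lower than in wild type under dexamethasone (-0.57, limma adjusted p = 0.00752). Cd163, the receptor for haemoglobin bound to haptoglobin, rose from 2.16 to 10.2 FPKM in wild type (1.83, limma adjusted p = 3.29e-06) and from 2.12 to 12.7 FPKM in knockout-labelled cells (2.2, limma adjusted p = 3.29e-07). Among other genes of haem handling, Blvra, a biliverdin reductase, fell by 0.48 in wild-type and 0.66 in knockout-labelled cells. Hmox2, a second haem oxygenase gene, fell by 0.36 and 0.4, and Slc46a1, a carrier of folate and haem, by 0.5 and 0.41. These are not all the genes of the list that fell. In all, 7 of 12 haem uptake, breakdown and export genes passed in wild type, 2 higher and 5 lower, and 8 in knockout-labelled cells, 2 higher and 6 lower, where 11.9% and 18.2% of all genes passed in these directions in wild type and 15.0% and 24.1% in knockout-labelled cells. The list is short and its difference from all genes was not tested.

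In haem synthesis 4 of 8 genes passed in each genotype, 1 higher and 3 lower, against 30.1% and 39.1% of all genes in either direction. Among those that fell in both were Alas1, the rate-limiting enzyme, by 0.58 and 0.8, and Alad by 0.5 and 0.79. Of 20 genes of mitochondrial iron and iron-sulfur clusters, 4 (20.0%) passed in wild type and 7 (35.0%) in knockout-labelled cells, below the shares over all genes. Isca1, an assembly factor, rose by 0.39 and 0.55.

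Of the genes that act on the hairpins, those of the binding proteins passed in no comparison. Aco1, the gene of iron regulatory protein 1, had group means of 26.0 and 21.8 FPKM in wild-type vehicle and dexamethasone cells and 29.4 and 24.0 FPKM in knockout-labelled cells (limma adjusted p = 0.0977 and 0.0552 for dexamethasone). Ireb2, the gene of the related protein 2, lay between 4.32 and 7.82 FPKM in all libraries and passed in no comparison. Fbxl5, the iron-sensing ubiquitin ligase subunit that marks these proteins for decay, rose by 0.46 in wild type (limma adjusted p = 0.00139) and 0.43 in knockout-labelled cells (limma adjusted p = 0.00173). Pcbp1, a chaperone that hands iron to ferritin, fell by 0.43 in knockout-labelled cells (limma adjusted p = 0.00162). Pcbp2, which also binds iron, rose by 0.22 in wild type (limma adjusted p = 0.0123) and was higher in knockout-labelled vehicle cells by 0.24 (limma adjusted p = 0.039). Lcn2, which binds iron-carrying siderophores, lay at no more than 0.571 FPKM in vehicle libraries and at 0.88 to 7.03 FPKM with dexamethasone. It entered the test only through the dexamethasone libraries, so its call there is no support and no p-value is given. Slc39a14, a metal importer, fell by 0.43 in knockout-labelled cells (limma adjusted p = 0.0299). Hamp, the gene of hepcidin, the hormone that removes ferroportin from the cell surface, did not pass the filter.

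Between genotypes, 2 of the 55 genes passed in vehicle, both higher, Pcbp2 among them. Under dexamethasone 12 passed, 3 higher and 9 lower. The shares were 3.64% and 21.8%, below the 4.68% and 26.7% over all genes tested. Without the 3 libraries apart in Col1a1 these counts were 22 and 26. Bmp6 and Steap4 were among the lower ones, and their values moved with Col1a1. Bmp6, a ligand that induces hepcidin in liver, held 5.95, 2.62, 5.4 and 0.207 FPKM in wild-type dexamethasone libraries and at most 0.0775 FPKM in the knockout-labelled ones. Steap4, a metalloreductase, held 9.44, 8.16, 9.28 and 0.457 FPKM against at most 0.133 FPKM. In both, replicate 4, the library low in Col1a1, was the low one. Bmp6 entered the test mainly through the other wild-type dexamethasone libraries. Smad7, an inhibitor of the same signalling family, also moved with Col1a1: it held 2.59, 1.57, 1.85 and 0.599 FPKM in wild-type dexamethasone libraries against 0.379 to 0.674 FPKM, a difference of -0.74 (limma adjusted p = 0.0285) with replicate 4 inside the knockout-labelled range. Id1, a target of that signalling, held 3.46, 1.32, 2.96 and 1.09 FPKM against 0.345 to 1.22 FPKM (-0.88, limma adjusted p = 0.0505). The response to dexamethasone differed between genotypes for none of the 55 genes in limma at an adjusted p under 0.05, where 6 had an unadjusted p under 0.05, and limma voom on recovered reads also called 0. Without the 3 libraries apart in Col1a1 it differed for 6 of them. The part of stromal RNA in these genotype differences was not tested.

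**Figure D4:**
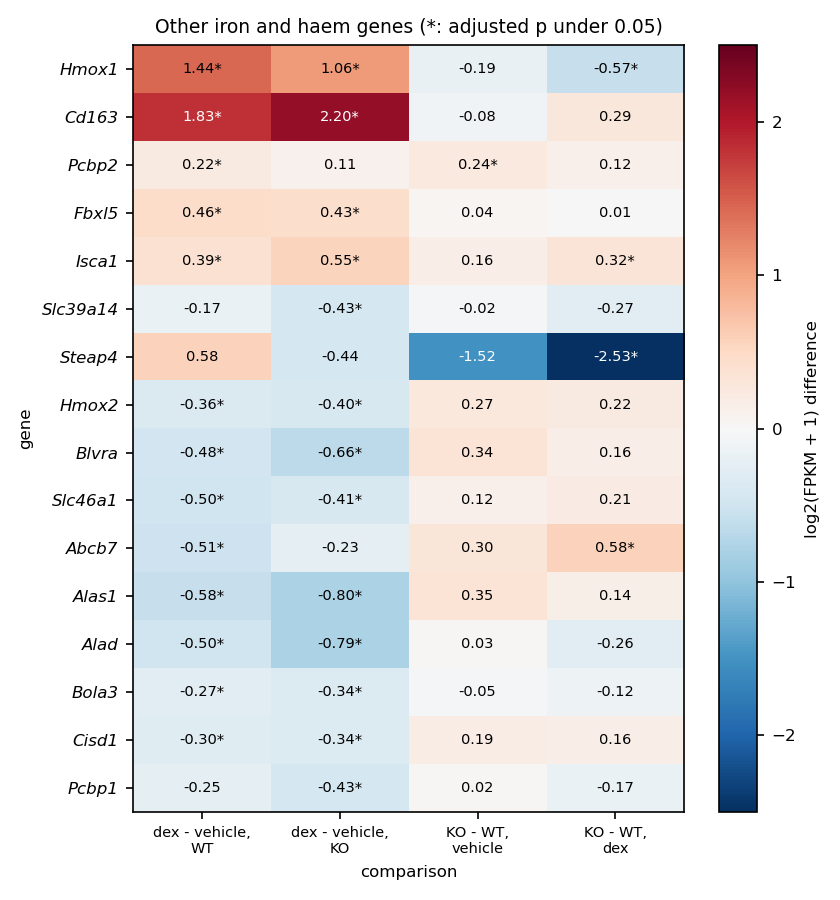
Log2(FPKM + 1) differences of 16 other iron and haem genes in 4 comparisons, as a colour scale. Hmox1 and Cd163 rise in both dexamethasone columns (1.44 and 1.06, 1.83 and 2.2), whereas Alas1, Alad, Blvra, Hmox2 and Slc46a1 fall in both.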

How the data were processed

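For each library the authors deposited FPKM values of 54532 Ensembl genes. Per the submitters' processing notes, TopHat2 2.0.12, Bowtie2 2.2.3, DESeq2 and HTSeq 0.6.1 were used with the builds GRCm38 and mm10. The sources used here do not give their roles or the strand setting of the counting, so reads of overlapping genes cannot be told apart. GENCODE M21 named 54495 identifiers. Groups and replicate numbers came from the sample titles. The members and the lists of other genes were chosen with earlier results of these data known. Other genes named are the called ones with the smallest adjusted p in each list (up to 4 per comparison) and every measured gene of storage and regulation. Checks, genes with names that start with Fth or Ftl and the 5 genes most like Slc40a1 were named as well. Some genes this rule covers are not reported here.

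Values were tested as log2(FPKM + 1), which understates changes of low genes, after a filter of 1 FPKM in at least 4 of 16 libraries. limma 3.58.1 in R 4.3.3 fitted 4 group means with an intensity trend, and two-sided p-values were corrected over 11654 genes by Benjamini-Hochberg, separately in 5 comparisons, at a threshold of 0.05. Printed fold changes are ratios of mean FPKM. Whole reads recovered from the FPKM at the exon length of each gene fitted 96.3 to 96.7% of positive values within 0.05 reads; 1 FPKM of a 2 kb gene came to 32.9 to 39.7 reads. The fit was tested on simulated data. Alternatives were another pseudocount, filter, scaling and set of groups, a replicate block, each library left out, the 3 libraries apart in Col1a1 left out, only libraries with Col1a1 under 50 FPKM, a stromal covariate and limma voom on recovered reads. The alternatives on Col1a1 and stromal RNA were chosen with these libraries already seen. Tables and figures were made in Python 3.11.15 with pandas 2.3.3, numpy 2.4.6 and matplotlib 3.10.9.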

Additional observations from a re-analysis of the deposited data

Results flagged for a closer look

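In 14 of 148 groups of 4 libraries, 1 library lay far from the other 3 by Dixon's test, where chance gives about 1 in 20. Among the members these were Slc11a1 at 214 FPKM in wild-type dexamethasone replicate 4, Steap3 at 16.8 FPKM in wild-type dexamethasone replicate 2, and Fth1 at 15398 FPKM and Hfe at 32.5 FPKM in knockout-labelled vehicle replicate 4. That last library, with the Col1a1 level of 95.8 FPKM, accounted for 7 of the 14. It also stood apart in Hmox1 (195 FPKM), Bmp6 (0.597), Id1 (1.34), Slc39a14 (3.57) and Steap4 (2.71). Wild-type dexamethasone replicate 4, with Col1a1 at 19.1 FPKM, also stood apart in Slc39a14 (1.73 FPKM) and Steap4 (0.457). The others were Blvra at 58.8 FPKM in wild-type vehicle replicate 3, and Aco1 at 24.8 FPKM and Urod at 12.9 FPKM in knockout-labelled dexamethasone replicate 4. The part of stromal RNA in these values was not tested.

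The difference between both responses of Slc11a2 to dexamethasone, an interaction of -0.68 on the log2 scale, passed the test over all 16 libraries. It passed in only 3 of 16 fits that left out 1 library, and not with no filter, with the replicate block or among libraries with Col1a1 under 50 FPKM. The gene was chosen from these same comparisons, so the value is a description.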

How the results depend on the processing

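Of 920 member differences recomputed under other settings, 873 stayed within their margin, 47 moved and 0 changed sign with a call. The margin was the gene's SD within groups in the main fit, so a call could be gained or lost inside it. The interaction of Slc11a2 stayed within it in 24 settings, yet did not pass in 13 of 16 fits that left out 1 library. Members that passed between vehicle genotypes numbered 2 in a fit of those groups alone, 7 without the 3 libraries apart in Col1a1 and 1 among libraries with Col1a1 under 50 FPKM; the interaction called 0 members with no filter, 0 with the replicate block, 3 without the 3 libraries and 0 under the Col1a1 limit. Deviations of same-numbered libraries correlated from -0.685 to 0.732. This cannot decide whether the replicate numbers pair the samples, because the 3 libraries apart in Col1a1 do not all carry the same number. Other iron genes that passed in vehicle numbered 1 with no filter, 0 in the groups alone, 1 with the replicate block, 22 without the 3 libraries, 0 under the Col1a1 limit, 1 with the stromal covariate and 0 with voom. Under dexamethasone they numbered 7 with the block, 26, 2 and 7 with the covariate, and for the interaction 6 without the 3 libraries. For dexamethasone in wild type they numbered 12 in the groups alone and 9 under the limit.

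Over all genes, the wild-type dexamethasone count was 2155 under the Col1a1 limit. The vehicle genotype count was 244 in the groups alone, 3958 without the 3 libraries and 60 under the limit; the treated genotype count was 5158, 390 and, with the covariate, 963. The interaction count was 6 with no filter, 1 with the replicate block, 725 without the 3 libraries, 1 under the limit, 123 with the covariate and 7 with voom. With 1 library left out, members called ranged from 7 to 8, 9 to 9, 4 to 5, 4 to 5 and 0 to 2 over the 5 comparisons (dexamethasone in wild type and in knockout-labelled cells, genotype in vehicle and under dexamethasone, interaction). Other iron genes ranged from 15 to 19, 18 to 23, 0 to 7, 6 to 20 and 0 to 1, and all genes from 2898 to 3633, 3761 to 4442, 278 to 1623, 1517 to 4070 and 2 to 330. Without wild-type dexamethasone replicate 4 the interaction called 330 genes and 2 members, and the treated genotype comparison 20 other iron genes; without wild-type vehicle replicate 3 or knockout-labelled vehicle replicate 4 the vehicle comparison called 6 or 7 of them, and 1623 or 1285 genes in all. The cause of these shifts was not tested.

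The share of calls that were higher was 39.5, 38.4, 72.1 and 53.7% in the first 4 comparisons and 55.7, 65.5, 57.5 and 68.0% with voom, which moved the median gene by up to 0.17; 0 of 26 member calls changed sign under it. The treated genotype difference of Lcn2, 0.86, was -0.01 under the Col1a1 limit. Trf, with at most 256 reads per library, is the member most limited by depth.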

Other observations

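The hairpin search also matched genes that are not known here as iron genes, named after their values were seen and with no claim that the match is an element. Of the 7 genes with a match in a 5′ untranslated region, Atrx and Wdfy1 passed in no comparison. Serpina3g, a serine protease inhibitor, fell with dexamethasone by 2.16 on the log2 scale in wild type and by 2.1 in knockout-labelled cells. Ftl1-ps1, the annotated ferritin copy that may share reads with Ftl1, fell by 0.5 and 0.63. Among the 26 genes with a match in a 3′ untranslated region, the chemokine gene Cxcl16 fell by 1.27 and 1.13, as Tfrc did, whereas Jaml, an adhesion molecule gene, rose by 5.23 and 5.41 and Pdcd4 by 0.44 and 0.94. Most did not pass: with dexamethasone 7 of the 26 passed in wild type, 3 higher and 4 lower, and 9 in knockout-labelled cells, 4 higher and 5 lower, where 30.1% and 39.1% of all genes tested passed. Of the 7 genes with a 5′ match, members included, 4 and 5 passed.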
